A study of Homo sapiens with 24 samples.

Results

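The loss of mRNA over 8 h was compared between U2OS cells carrying a guide against QKI (sgQKI+EV) and control cells carrying the sgNS guide (sgNS+EV). U2OS is an established human osteosarcoma cell line, EV is read here as an empty vector, and polyA RNA was measured by stranded mRNA sequencing. Of the 24 libraries of the series, 8 make the comparison: sgNS+EV and sgQKI+EV at 0 h and at 8 h, 2 libraries in each of 4 groups, taken by their sample titles. All 4 groups received 5 µg/mL actinomycin D, which blocks transcription, together with 200 µM sodium arsenite, an oxidative stressor, for 0 or 8 h. A further 4 libraries hold both genotypes at 4 h. Another 12 are of QKI-guide cells given back QKI7 (QKI7-WT) or QKI7 without its KH domain (QKI7-dKH). Values from these further libraries are given only where named. The main fit, however, used all 24 libraries, so they also set the spread behind its SEs and p-values. The labels do not say whether a genotype is 1 clone or a pool, or whether the 2 libraries of a group came from separate cultures. The p-values therefore measure only the spread between libraries of the same group.

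QKI (Quaking) is an RNA-binding protein of the STAR family. Its KH domain with the flanking QUA2 segment contacts single-stranded RNA at the element ACUAAY, where Y is C or U, often in introns and 3′ untranslated regions. It is known for work in splicing, mRNA stability, RNA localisation and circular RNA formation, and the QKI7 isoform is largely cytoplasmic. In a transcription-blocked chase the fall of an mRNA is read here as its decay, though only polyA RNA was measured. A gene whose signal falls further in targeted cells has a negative decay difference. The decay difference used throughout is the log2 change from 0 to 8 h in sgQKI+EV minus that in sgNS+EV, tested as an interaction with limma on log2 of the deposited signal plus 1 over 12547 endogenous genes. A gene is said to have passed at a Benjamini-Hochberg adjusted p under 0.05.

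QKI itself checks the labels. In control cells it measured 60.0 and 48.2 at 0 h and 24.1 and 21.9 at 8 h. In sgQKI+EV it was 36.0 and 32.7 at 0 h and 10.6 and 11.7 at 8 h. The genotypes did not overlap at either time, and QKI was lower in targeted cells at 0 h (log2 difference −0.63, adjusted p = 0.026) and at 8 h (−0.98, adjusted p = 9.5e-05). Its own decay difference was −0.35 (SE 0.20, adjusted p = 0.391) and did not pass. QKI (GRCh38 chr6:163414000-163578596) holds 5 hexamers ACTAAC or ACTAAT, the DNA spelling of the QKI element, in its longest annotated 3′ untranslated region.

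Sites from some named genes that hold the element are printed so that it can be seen in its context. Of the 84 genes that fell further in targeted cells, described below, 27 hold it (32.1%). Among all genes with an annotated region the share was 37.9%. They are 26 bases of the transcript's own strand from GENCODE 29 on GRCh38, with the hexamer in capitals. The first 2 come from QKI, at chr6:163573786-163573811 and chr6:163573879-163573904. The next 5 come from genes that passed: HSPA5 (chr9:125235821-125235846), AMOTL2 (chr3:134357308-134357333 and chr3:134357261-134357286), ZFP36L1 (chr14:68788819-68788844) and CKAP2L (chr2:112737559-112737584). The last 2, from IGFBP7 (chr4:57031208-57031233) and PMEPA1 (chr20:57650253-57650278), had the smallest p-values above the all-gene median in the test relative to it, and passed on neither scale.
QKI site 1: ataccaacctACTAACtctggacttt
QKI site 2: gagttactggACTAACcctgaagaac
HSPA5: taaaattattACTAATgatgctttta
AMOTL2 site 1: ggtttggggaACTAATttccacggac
AMOTL2 site 2: ggactggttcACTAATcaagtcagcc
ZFP36L1: acccctgttgACTAATcttgcctggg
CKAP2L: ttgtggaaaaACTAATaattaaaaat
IGFBP7: aatccaatccACTAACactttagtta
PMEPA1: tgactagtagACTAACataaaagata

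Endogenous rows added up to 690431 in the lowest and 1220353 in the highest library, and replicates correlated across genes with Pearson r between 0.9966 and 0.9979. Ribosomal RNA rows made up 8.08 to 12.05% of the signal in sgNS+EV at 0 h and 4.39 to 7.23% at 8 h, against 3.55 to 8.22% and 3.32 to 3.58% in sgQKI+EV, and their part in the results was not tested beyond the scalings given below. Read depth is unknown. Of 9 osteosarcoma and mesenchymal markers, 7 were in the table, with a summed signal of 3525 to 6122, while ALPL and SP7 were not listed. None of 5 blood or 3 endothelial markers was listed, and of 5 epithelial markers only EPCAM was, at 4.10 to 7.51.

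Most genes fell over the chase in both genotypes, 88.2% of them in sgNS+EV and 90.5% in sgQKI+EV at an adjusted p under 0.05. The median gene kept 58.5% of its signal at 8 h in sgNS+EV and 53.3% in sgQKI+EV, and the median decay difference over all genes was −0.14, with 79.0% of genes below 0 and a median SE of 0.15. This shared shift depends on how libraries are scaled: it was −0.05 on library totals and −0.01 after quantile normalisation, and whether the spike-in was added per cell is not given in the sources used here. Fewer cells and less RNA per cell cannot be told apart in such data. Each decay difference is therefore also given relative to the all-gene median, with its own test after centring every library on its median gene.

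On the deposited scale 84 genes fell further in QKI-targeted cells (0.669% of genes tested) and 1 fell less (0.00797%). Relative to the all-gene median, 2 genes fell further (0.0159%), HSPA5 and AMOTL2, and 0 fell less in limma (0%), where 428 genes above and 633 below had an unadjusted p under 0.05. The 84 genes had a median decay difference of −0.50, from −0.95 to −0.38, and 21 of them differed by at least 1.5-fold. They kept a median 50.9% of their 0 h signal in sgNS+EV and 35.4% in sgQKI+EV. The 84 were chosen by their decay difference in these same libraries. Their genotype differences and library changes given next are therefore description, not separate support. The genotypes parted between 0 and 8 h: the genotype difference of the 84 genes had a median of 0.03 at 0 h and −0.47 at 8 h, 4 passed at 0 h, and 83 were lower at 8 h. Of all genes 0.183% were higher and 1.37% lower at 0 h, and 0.287% were higher and 34% lower at 8 h. In all 84 each sgQKI+EV change from a 0 h to an 8 h library lay below each sgNS+EV change, as it did in 39.8% of all genes. The number depended on the libraries fitted: it was 1343 with the 8 libraries alone, 395 without the QKI7-WT libraries at 4 h, and 1 to 11 with any 1 of the 8 libraries left out. After quantile normalisation 54 genes fell further and 12 fell less, so that 81.8% of the genes that passed were lower, against 98.8% on the deposited scale. Of the 85 genes 36 also passed after quantile normalisation, while CDK1 (adjusted p = 0.312), CCNA2 (0.254) and EIF4A2 (0.248), described below, were among those that did not.

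**Figure D1:**
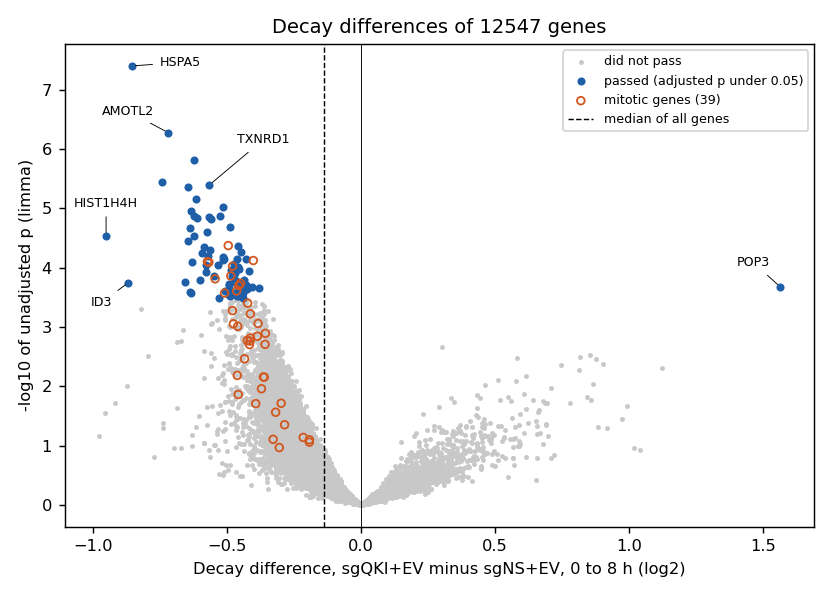
Decay difference (log2, horizontal) against −log10 of the unadjusted limma p (vertical) for 12547 genes. Blue points passed at an adjusted p under 0.05, orange rings are the 39 measured mitotic genes, and the dashed line is the all-gene median of −0.14. HSPA5 and AMOTL2 stand highest on the left, all 39 rings lie left of the dashed line, and POP3 is the only blue point on the right.

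HSPA5 encodes BiP, the main HSP70 chaperone of the endoplasmic reticulum (chr9:125234853-125241330). Its signal was 332 and 359 in sgNS+EV at 0 h and 95.3 and 101 at 8 h. In sgQKI+EV it was 349 and 354 at 0 h and 55.7 and 53.8 at 8 h. The genotypes overlapped at 0 h and did not at 8 h. HSPA5 kept 28.4% of its signal in control cells and 15.6% in targeted cells, a decay difference of −0.85 (SE 0.10, adjusted p = 5.03e-04), or −0.72 relative to the all-gene median (adjusted p = 0.0189). HSPA5 was also the 1 gene that passed on the deposited scale whichever of the 8 libraries was left out. The relative call of HSPA5 held without sgNS+EV 0 h replicate 2 or sgQKI+EV 0 h replicate 1 and was lost without any 1 of the other 6 libraries (relative value −0.76 to −0.63, adjusted p from 0.0723 to 0.249). At 4 h its signal was 181 and 168 against 160.0 and 141, a log2 difference of −0.21, against −0.83 at 8 h.

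AMOTL2 encodes an angiomotin, a scaffold of the Hippo pathway that binds YAP and is itself a YAP target. Its signal went from 65.4 and 64.0 at 0 h to 22.0 and 22.9 at 8 h in sgNS+EV, and from 75.0 and 73.9 to 15.01 and 15.7 in sgQKI+EV. The targeted libraries were thus the higher ones at 0 h and the lower ones at 8 h. AMOTL2 kept 34.7% in control and 20.6% in targeted cells. Its decay difference was −0.72 (SE 0.10, adjusted p = 0.00335), or −0.58 relative to all genes (adjusted p = 0.0142). Leaving out the same 6 libraries 1 at a time also ended the relative call of AMOTL2 (−0.62 to −0.55, adjusted p from 0.0533 to 0.195), and without sgNS+EV 8 h replicate 2 the call on the deposited scale was lost too (−0.69, adjusted p = 0.0549). ANKRD1, another YAP target and a cardiac ankyrin-repeat protein, kept 8.77% in control and 5.70% in targeted cells, falling from 598 and 628 to 53.9 and 53.6 in sgNS+EV and from 662 and 643 to 38.7 and 35.6 in sgQKI+EV (decay difference −0.61, adjusted p = 0.0139; relative adjusted p = 0.0837). Of 23 measured YAP and TAZ targets these 2 fell further (8.70%, against 0.669% of all genes) and none fell less. The list median was −0.25 against −0.14 for all genes. At an unadjusted p under 0.05, 10 of the 23 were lower (43.5%, against 16.5% of all genes). Of 45 Hippo pathway components AMOTL2 alone passed (2.22%), 9 were lower at an unadjusted p under 0.05 (20%), and the median was −0.19.

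**Figure D2:**
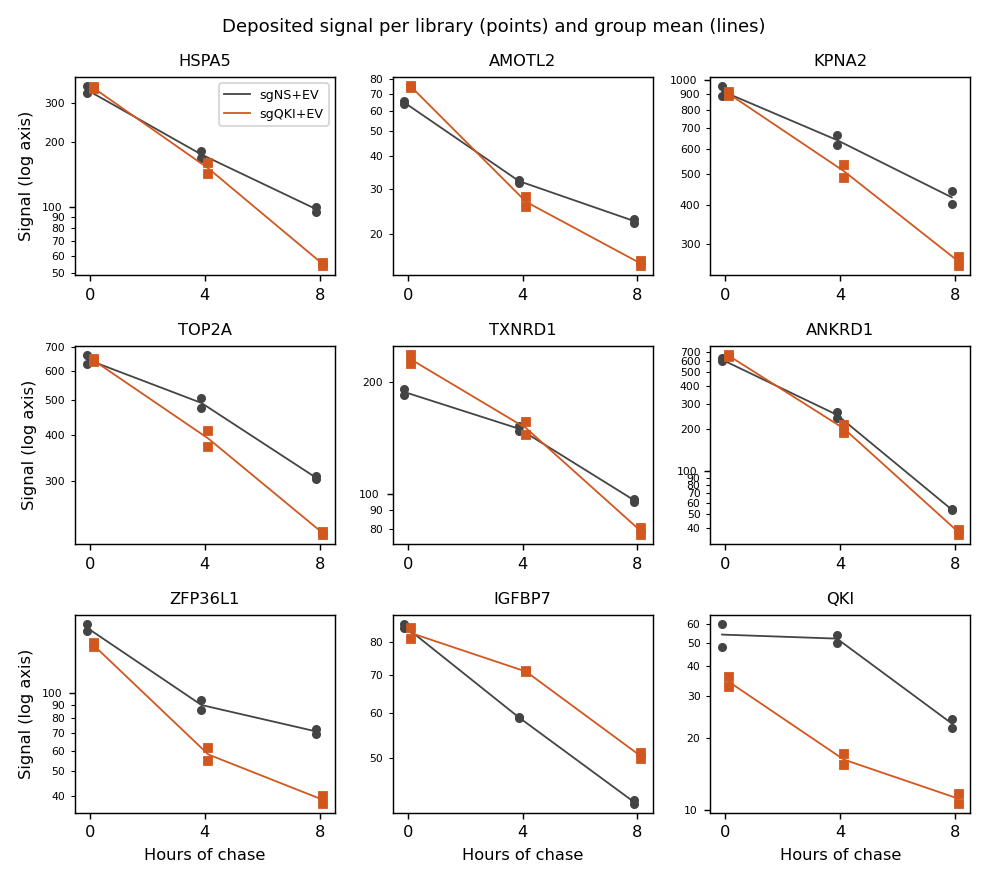
Deposited signal (log axis) at 0, 4 and 8 h of chase for 9 genes, with each library as a point and the group mean as a line, in sgNS+EV (grey circles) and sgQKI+EV (orange squares). HSPA5 runs from 332 to 359 at 0 h down to 95.3 to 101 in control and 53.8 to 55.7 in targeted cells at 8 h. IGFBP7 ends higher in targeted cells, and QKI is lower in targeted cells at all 3 times.

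Of the 36 gene lists examined, that of mitotic genes had the most members that passed. Of 39 measured mitotic genes 11 fell further in targeted cells (28.2%, against 0.669% of all genes) and 0 fell less in limma. At an unadjusted p under 0.05, 34 were lower (87.2%, against 16.5% of all genes). All 39 lay below the all-gene median, and the list's median was −0.41, or −0.28 relative to all genes. At 0 h the list's median genotype difference was −0.00, with 19 of 39 above 0. None of the 39 passed at 0 h, where few of all genes did (0.183% higher and 1.37% lower). At 8 h the list's median was −0.43 and 35 of 39 passed as lower, against a median of −0.20 and 34% lower over all genes. Mitotic mRNAs kept a median 60.4% in control and 43.3% in targeted cells. The add-back cells lay between, at 50.6% with QKI7-WT and 49.7% with QKI7-dKH. The median over all genes did so too, at 55.2% and 55.9%, between 58.5% in control and 53.3% in targeted cells. These genes are abundant, with a median signal of 125 against 18.6 for all genes, and among the 2510 most abundant genes the median decay difference was −0.18. Relative to the all-gene median none of the 39 passed, and none passed on the deposited scale when any 1 of the 8 libraries was left out, although 30 to 34 then still had an unadjusted p under 0.05 and the list's median relative to all genes was −0.31 to −0.24.

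TOP2A, the topoisomerase that untangles sister chromatids, fell from 629 and 664 to 302 and 308 in sgNS+EV and from 649 and 635 to 217 and 213 in sgQKI+EV. The genotypes overlapped at 0 h and were apart at 8 h, with a decay difference of −0.50 (SE 0.10, adjusted p = 0.0245). CDK1, the kinase that drives mitotic entry, fell from 203 and 205 to 121 and 124 in control and from 231 and 224 to 104 and 103 in targeted cells (−0.40, adjusted p = 0.0284). It began higher in the targeted libraries and ended lower. CENPA, the histone variant that marks centromeres, kept 47.4% in control and 31.6% in targeted cells (−0.57, adjusted p = 0.0284). INCENP, the scaffold of the chromosomal passenger complex, kept 50.9% and 33.9% (−0.57, adjusted p = 0.0284).

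KPNA2, an importin alpha that is abundant in dividing cells, was not on that list and was named by its rank. Its signal fell from 887 and 955 to 403 and 442 in sgNS+EV and from 914 and 889 to 272 and 255 in sgQKI+EV. The libraries overlapped at 0 h and were well apart at 8 h, with a decay difference of −0.65 (SE 0.11, adjusted p = 0.00923). CKAP2L, a spindle protein, fell from 78.7 and 80.7 to 44.5 and 42.6 in control and from 87.3 and 87.3 to 32.3 and 31.3 in targeted cells (−0.57, adjusted p = 0.0183). ERCC6L, the PICH helicase of anaphase bridges, had a decay difference of −0.53 (adjusted p = 0.0489). Relative to all genes the adjusted p was 0.0528 for KPNA2 and CKAP2L and 0.0791 for ERCC6L, so none of these 3 passed there.

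Of 50 DNA replication and S-phase genes 2 fell further (4%, against 0.669% of all genes) and none fell less, with a median of −0.23. At an unadjusted p under 0.05, 25 of them were lower (50%, against 16.5% of all genes). PCNA, the sliding clamp of DNA polymerases, fell from 292 and 312 to 150.1 and 159.9 in sgNS+EV and from 320.4 and 307 to 112 and 111 in sgQKI+EV (−0.53, adjusted p = 0.0139). CCNA2, the cyclin of S phase and G2, kept 42.8% and 30.4% (−0.49, adjusted p = 0.0321). Among 29 replication-dependent histone genes 3 fell further (10.3%). HIST1H4H had the most negative value of all genes that passed, −0.95 (SE 0.18, adjusted p = 0.0197), with 52.5 and 65.0 falling to 48.8 and 44.4 in control and 68.1 and 68.6 falling to 25.3 and 30.3 in targeted cells. Its control libraries at 0 h lay further apart than its targeted ones, and relative to all genes its adjusted p was 0.166. HIST1H2BD (−0.62) and HIST2H2BE (−0.56) also passed (adjusted p = 0.0139 each). The histone list went both ways: 9 members were lower (31.0%, against 16.5% of all genes) and 1 higher at an unadjusted p under 0.05. The higher one was HIST2H2AC (0.58, adjusted p = 0.12), and values reached 1.02 in HIST1H4E (adjusted p = 0.402). These histone values come from polyA libraries, and near-identical histone copies can share reads.

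**Figure D3:**
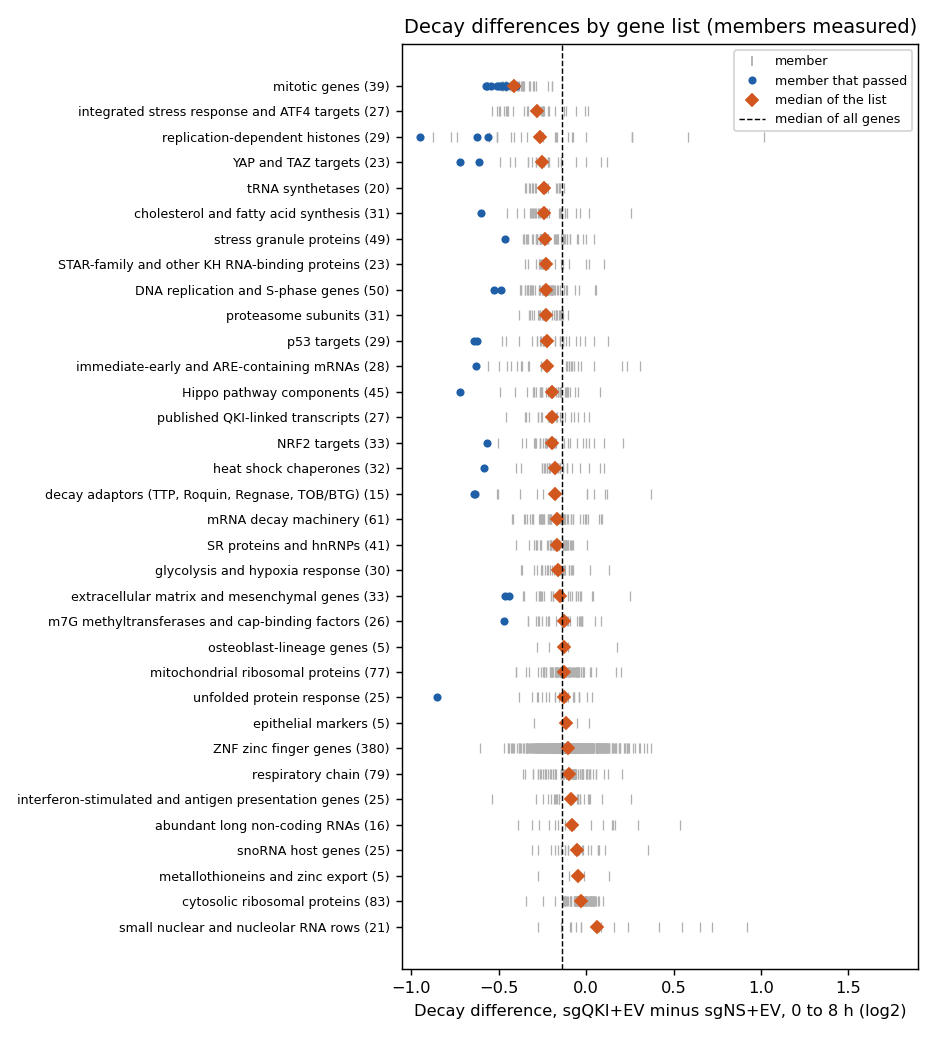
Decay difference (log2) of every member of the 34 gene lists with at least 5 measured members, as grey ticks, with members that passed as blue dots and the list median as an orange diamond. The dashed line is the all-gene median of −0.14. The mitotic list has the lowest median, −0.41, and small nuclear and nucleolar RNA rows the highest, 0.06. Those small RNA rows hardly fell, with a median 96.1% left in sgNS+EV and 97.0% in sgQKI+EV, and 0 of them passed.

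Several regulators of mRNA turnover and immediate response were among the genes that fell further. ZFP36L1, which binds AU-rich elements and recruits deadenylases, fell from 172 and 184 to 69.5 and 72.5 in sgNS+EV and from 155 and 149 to 40.1 and 37.5 in sgQKI+EV. The targeted libraries were the lower ones at both times, and the decay difference was −0.63 (SE 0.11, adjusted p = 0.0139). BTG2, an adaptor of the CCR4-NOT deadenylase and a p53 target, fell from 39.6 and 40.8 to 7.10 and 7.10 and from 35.6 and 32.7 to 3.80 and 3.09 (−0.64, adjusted p = 0.0434). These were 2 of 15 decay adaptors (13.3%, against 0.669% of all genes), whose median was −0.18. Of the 15, 6 were lower at an unadjusted p under 0.05 (40%). Of 61 mRNA decay machinery genes none passed in limma, 16 were lower at an unadjusted p under 0.05 (26.2%, against 16.5% of all genes), and the smallest p was that of SMG8, a regulator of nonsense-mediated decay (−0.42, adjusted p = 0.0605). PLAUR, the urokinase receptor, passed alone among 28 immediate-early and ARE-containing mRNAs (−0.63, adjusted p = 0.0284). Of these 28, 10 were lower at an unadjusted p under 0.05 (35.7%).

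The heat shock, NRF2 and unfolded protein response lists had 1 member each that passed (3.1%, 3.0% and 4%, against 0.669% of all genes). At an unadjusted p under 0.05, 7, 10 and 5 of their members were lower (21.9%, 30.3% and 20%, against 16.5% of all genes). DNAJB1, a cytosolic HSP40 co-chaperone, fell from 153 and 166 to 42.8 and 40.8 in sgNS+EV and from 159 and 160.3 to 27.5 and 27.6 in sgQKI+EV (−0.59, adjusted p = 0.025), the only one of 32 heat shock chaperones that passed. Its difference arose after 4 h, when the signal was 60.2 and 59.0 against 64.4 and 55.5. TXNRD1, the cytosolic thioredoxin reductase and an NRF2 target, fell from 185 and 191 to 95.1 and 96.7 in control and from 237 and 224 to 80.9 and 77.2 in targeted cells (−0.57, SE 0.09, adjusted p = 0.00923). It was higher in targeted cells at 0 h (log2 difference 0.29, adjusted p = 0.0238) and lower at 8 h. It was 1 of 33 NRF2 targets that passed. HSPA5 was 1 of 25 genes of the unfolded protein response, whose median of −0.13 lay beside that of all genes. The p53 target PLK2, a polo-like kinase, fell from 208 and 229.5 to 54.1 and 56.0 in control cells. In targeted cells PLK2 fell from 224 and 221 to 36.8 and 35.2, a decay difference of −0.62 (adjusted p = 0.00635). With BTG2 it made 2 of 29 p53 targets (6.90%), of which 9 were lower at an unadjusted p under 0.05 (31.0%).

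The integrated stress response list, 27 measured targets of ATF4 and relatives, had a median of −0.28, but 0 members passed in limma and 13 were lower at an unadjusted p under 0.05 (48.1%, against 16.5% of all genes). Of the 27 members 22 lay below the all-gene median. PSAT1, a serine synthesis enzyme, had its smallest p, with 53.7 and 48.1 at 0 h and 52.3 and 49.3 at 8 h in sgNS+EV and 62.8 and 59.6 against 41.8 and 44.6 in sgQKI+EV (−0.49, adjusted p = 0.053). PSAT1 held its level in control cells, with 99.8% left, while 70.6% was left in targeted cells. The 20 tRNA synthetases also had 13 members lower at an unadjusted p under 0.05 (65.0%) and 0 that passed, with a median of −0.24. They are abundant, with a median signal of 107 against 18.6 for all genes. The 31 cholesterol and fatty acid synthesis genes had a list median of −0.24. With the mitotic, histone and YAP and TAZ lists, these 3 were the 6 lists of 34 whose median lay at least 0.1 below that of all genes. This membership depended on scaling. The tRNA synthetase and cholesterol lists came closer on library totals (−0.09 each relative to all genes) and after quantile normalisation (−0.06 each). Immediate-early and ARE-containing mRNAs reached −0.12 after quantile normalisation. The other lists named here stayed at least 0.1 below under both scalings.

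Among genes of the cytoplasm's mRNA granules and cap, DDX3X, a stress granule RNA helicase, passed alone of 49 stress granule genes (−0.46, adjusted p = 0.0434), of which 24 were lower at an unadjusted p under 0.05 (49.0%, against 16.5% of all genes). The stress granule genes are abundant, with a median signal of 100 against 18.6 for all genes. EIF4A2, a helicase of the cap-binding complex, passed alone of 26 m7G and cap genes (−0.47, adjusted p = 0.0331). Of these 26, 6 were lower at an unadjusted p under 0.05 (23.1%). Of 23 STAR-family and other KH proteins and of 27 transcripts linked to QKI in publications, 0 passed in limma, with 9 (39.1%) and 8 (29.6%) lower at an unadjusted p under 0.05 and medians of −0.23 and −0.19. The member of smallest p in the second list was NUMB, a Notch regulator (−0.35, adjusted p = 0.132).

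Surface and matrix genes gave the remaining named values. BMPR1A, a BMP type I receptor, fell from 67.3 and 66.6 to 16.4 and 14.5 in sgNS+EV and from 71.8 and 67.6 to 10.0 and 9.92 in sgQKI+EV (−0.64, adjusted p = 0.0168). ACKR3, a chemokine scavenger receptor, kept 46.7% and 29.6% (−0.62, adjusted p = 0.0197). HAPLN1, which links hyaluronan to proteoglycans, kept 45.1% and 30.2% (−0.57, adjusted p = 0.0139). MGAT2, an N-glycan transferase of the Golgi, kept 50.2% and 34.9% (−0.51, adjusted p = 0.0139). Of 33 matrix and mesenchymal genes THBS1 (thrombospondin, −0.47, adjusted p = 0.0392) and FBN2 (fibrillin, −0.44, adjusted p = 0.0485) passed. That list had 9 members lower at an unadjusted p under 0.05 (27.3%, against 16.5% of all genes). None of BMPR1A, ACKR3, HAPLN1 and MGAT2 passed relative to all genes (adjusted p from 0.0528 to 0.0791).

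Few genes lay on the other side. POP3, whose symbol has no match in the annotation used, was the 1 gene that fell less, and its signal was low: 10.0 and 12.6 at 0 h and 3.80 and 2.44 at 8 h in sgNS+EV, and 3.97 and 3.39 and then 4.86 and 2.60 in sgQKI+EV. It was lower at 0 h in targeted cells and overlapped at 8 h, with a decay difference of 1.57 (SE 0.35, adjusted p = 0.0409; relative adjusted p = 0.103). It left the count when genes of low signal were filtered out. IGFBP7, a secreted IGF-binding protein, went from 84.5 and 85.9 to 41.7 and 42.3 in sgNS+EV and from 84.6 and 81.0 to 49.8 and 51.1 in sgQKI+EV. Its decay difference of 0.30 (SE 0.09, adjusted p = 0.105) was 0.44 relative to all genes (adjusted p = 0.0791) and passed on neither scale, though after quantile normalisation it did (0.45, adjusted p = 0.0141). PMEPA1, a TGF-β-induced inhibitor of SMAD signalling, had a value of 0.23, or 0.37 relative to all genes (adjusted p = 0.0791). The integrins ITGB3 (0.51) and ITGA2 (0.26), the glutamate transporter SLC1A3 (0.30), the tetraspanin CD82 (0.44) and the nuclear RNA NEAT1 (0.15) also took these places and did not pass. NEAT1 did not fall: it rose to 116% of its 0 h signal in sgNS+EV and 129% in sgQKI+EV. In limma, NEAT1 (−0.48, adjusted p = 9.01e-05) and SLC1A3 (−0.51, adjusted p = 0.0139) were already lower in targeted cells at 0 h. The 83 cytosolic ribosomal protein mRNAs had a median of −0.03, 0.11 above that of all genes, with 0 passing in limma. At an unadjusted p under 0.05, 1 was lower (1.20%, against 16.5% of all genes). After quantile normalisation the list lay 0.03 above.

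Lability and level went with the size of the difference. Genes were placed in 5 bins of equal size by their change from 0 to 8 h in QKI7-WT cells, libraries that the decay difference does not use. The median decay difference ran from −0.19 in the most labile bin through −0.17, −0.14 and −0.13 to −0.09 in the most stable, and the 84 genes fell into them as 52, 26, 6, 0 and 0. By the mean level in the add-back libraries the medians were 0.01 in the lowest bin and then −0.10, −0.16, −0.19 and −0.18, and 0, 1, 7, 32 and 44 genes passed. The added constant of 1 shrinks the changes of low genes, and its part in this order was not tested. In the 0 to 4 h window the medians ran from −0.29 in the most labile bin to 0.19 in the most stable, and in the 4 to 8 h window from 0.12 to −0.25. Both windows share the 4 h libraries with opposite sign, so these opposite slopes are not independent.

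**Figure D4:**
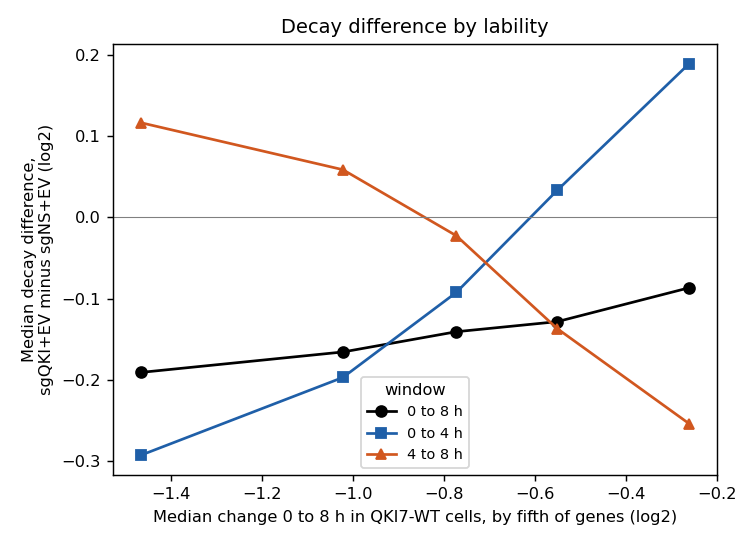
Median decay difference (log2) of sgQKI+EV against sgNS+EV in 5 bins of genes ordered by their median change from 0 to 8 h in QKI7-WT cells (horizontal, log2), for 0 to 8 h (black circles), 0 to 4 h (blue squares) and 4 to 8 h (orange triangles). The 0 to 8 h line rises from −0.19 in the most labile bin to −0.09 in the most stable, and the 2 shorter windows cross.

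The QKI element was counted among the genes that fell further, with no test. ACTAAC or ACTAAT, searched on the transcript strand in the longest annotated 3′ untranslated region, occurred in 4368 of 11540 genes (37.9%) and in 27 of the 84 (32.1%), whose median region was shorter (1127 against 1367 bases). The median decay difference was −0.16 with the hexamer and −0.14 without, and 0.618% and 0.795% of these genes passed. Genes with ACTAAC had a median of −0.15 and those with ACTAAT alone −0.16. Of the 24 genes ranked at either end, 6 of the 12 lower ones held the hexamer, each as ACTAAT only, and so did 5 of the 9 higher ones with an annotated region, each as ACTAAC. POP3, HIST2H2AC and NEAT1, the other 3 higher ones, had no annotated region to search. Those 24 were chosen for their values, and the medians over all genes do not part the same way. A match is a description of the letters, not evidence of binding.

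A separate set of libraries gives the same contrast for the KH domain: the 0 to 8 h change in QKI7-dKH minus that in QKI7-WT. No gene passed there (0%) in limma, 120 had an unadjusted p under 0.05, and the all-gene median was −0.00. Among the 84 genes 64 lay below 0 and 20 above, with a median of −0.05, where 50.7% of all genes lay below 0. Of the 39 mitotic genes 37 lay below 0, with a median of −0.07. Lists above the all-gene median in the first contrast went both ways here. Cytosolic ribosomal proteins had a median of −0.09 and respiratory chain genes −0.08. Interferon-stimulated genes had 0.03 and small nuclear and nucleolar RNA rows 0.49. Those small RNA rows rose over the chase, to a median 224% of their 0 h signal in QKI7-WT and 216% in QKI7-dKH. Their 0.49 therefore does not compare losses. The 84 genes and the mitotic list had median signals of 63.2 and 125, against 18.6 for all genes, and the part of level was not tested. HSPA5 had −0.29 (20.8% left in QKI7-WT and 17.0% in QKI7-dKH), DNAJB1 −0.30 and HIST2H2BE −0.28, while AMOTL2 had −0.02 and ANKRD1 0.02. Across all genes the 2 decay differences correlated with r of 0.09, over genes that share libraries within each contrast.

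**Figure D5:**
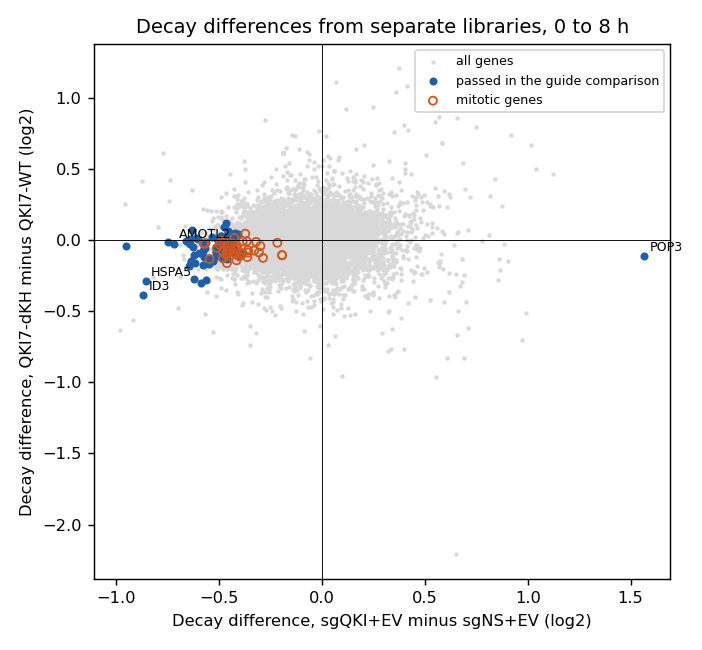
Decay difference of sgQKI+EV against sgNS+EV (horizontal, log2) and of QKI7-dKH against QKI7-WT (vertical, log2) for all genes (grey), genes that passed in the first (blue) and mitotic genes (orange rings). Blue points lie from −0.95 to −0.38 along the horizontal axis, apart from POP3 at 1.57. On the vertical axis they lie between −0.39 (ID3) and 0.13 (LIN52), with HSPA5 at −0.29 and AMOTL2 at −0.02.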

How the data were processed

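The deposited table holds 1 column for each of 24 libraries, with 12547 endogenous genes and 38 ERCC spike-in rows. Its values are a normalised signal on a linear scale made by the authors; the ERCC rows sum to between 11485 and 11940 in every library, so the signal was read as scaled to the spike-in. The step before it is not given in the sources used here. STAR, RSEM and GRCh38 are named in the submitters' processing notes. Counts were not used, so depth is unknown and precision comes from replicates.

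Log2 of the signal plus 1 was fitted with 12 group means over 24 libraries in limma 3.58.1 (R 4.3.3, mean-variance trend, 12 residual degrees of freedom, two-sided, Benjamini-Hochberg over 12547 genes). The design had allowed for counts, and the branch for normalised values was used. Relative tests first subtracted each library's median. The relative values printed for single genes are the decay difference minus the all-gene median. They differ slightly from the centred value that was tested, as 0.44 against 0.43 for IGFBP7. Relative values of HSPA5 and AMOTL2 with 1 library left out are the centred ones. Percent left is the ratio of group mean signals. Symbols were matched to GENCODE 29 (11936 current, 281 older, 330 unmatched). The table has 38 rows identical to an earlier row.

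Named genes are QKI, the 12 highest and 12 lowest that passed on both scales (mean signal at least 5, same direction in both replicates), with free places filled by the smallest p relative to the median, and up to 4 passing members of each of 36 gene lists, or else the member of smallest p. Members and lists were chosen with earlier results of these data known. The fit was tested on simulated data. Alternatives were quantile normalisation, library totals with and without ribosomal RNA, a pseudocount of 0.1, a filter (5 or more in 4 libraries), a replicate block, fewer libraries, other time windows, a 1.5-fold limit and no trend.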

Additional observations from a re-analysis of the deposited data

Results flagged for a closer look

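HSPA5 and AMOTL2 stand out because the test of the difference between the genotypes passed for both, also relative to the all-gene median: the decay difference was −0.85 for HSPA5 and −0.72 for AMOTL2. Both calls relative to the median were lost in 6 of the 8 fits that left out 1 library, with adjusted p up to 0.249 for HSPA5 and 0.195 for AMOTL2.

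For 3 named genes the decay difference itself differed, on the deposited scale and relative to the all-gene median, between the first and the second 4 h of the chase, by a limma test of the 0 to 4 h value minus the 4 to 8 h value. QKI had −0.99 in the first window and 0.64 in the second, a difference of −1.63 (adjusted p = 0.0247). HIST2H2AC, a replication-dependent histone, had 1.04 and −0.46, a difference of 1.51 (adjusted p = 0.0247). DNAJB1 had 0.00 and −0.59, a difference of 0.60 (adjusted p = 0.0428). Over all genes 1238 passed in the higher and 1064 in the lower direction, so such a difference was common, and both windows share the 4 h libraries. Relative to the all-gene median the balance was 3105 higher and 1042 lower, and 8 more named genes passed on that scale alone, among them IGFBP7 (adjusted p = 0.015), PCNA (0.0191), HSPA5 (0.0209) and PLAUR (0.0334). With 2 libraries per group no single library could be compared with the rest of its group.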

How the results depend on the processing

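Genes that fell further and genes that fell less, 84 and 1 on the deposited scale, numbered 54 and 12 after quantile normalisation, 52 and 2 on library totals, 59 and 5 on totals without ribosomal RNA, 110 and 1 with a pseudocount of 0.1, 119 and 0 after the filter, 1343 and 30 with the 8 libraries alone, 395 and 3 without the QKI7-WT libraries at 4 h, 1115 and 226 with 4 h in place of 8 h, 1454 and 174 from 4 to 8 h, 21 and 1 at 1.5-fold, and 3 and 0 with no trend. Added after the data were seen, they numbered 433 and 4 without any 4 h library and 268 and 6 with both genotypes at 3 times. Leaving out each library gave 1 (sgNS+EV 8 h replicate 2) to 11 (sgNS+EV 0 h replicate 2) and 0.

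Relative to the all-gene median, the 2 and 0 became 54 and 12 (quantile), 5 and 0 (filter), 4 and 1 (8 libraries), 34 and 7 (without QKI7-WT at 4 h), 672 and 1739 (4 h), 2293 and 500 (4 to 8 h) and 13 and 2 (no 4 h library), and 0 to 9 and 0 to 1 with 1 library left out. HSPA5 and AMOTL2 were 2 of the 9, and passed in 2 of these 8 fits. The 6 lists at least 0.1 below all genes became 3 without sgNS+EV 0 h replicate 1 and 10 without sgQKI+EV 0 h replicate 1. DNAJB1 turned to 0.0045 (adjusted p = 0.982) at 4 h. The cause of these changes was not tested. No gene of the 85 changed sign except 4 with 4 h in place of 8 h and 2 from 4 to 8 h.

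With replicate number as a block 108 genes fell further and 1 fell less. The numbers were not treated as pairing: no label says what they share, and same-numbered deviations correlated between −0.16 and 0.23 over 6 pairs of groups. In QKI7-dKH against QKI7-WT 0 genes passed under each of 8 alternatives run. With no depth, limits of detection could not be given.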

Other observations

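Beyond the listed genes, 54 of the 84 genes that fell further belong to no list, and those named here were chosen after their values were seen, for having passed. No list was fixed for their pathways and no members that did not pass were counted, so they describe single genes. They include BMP4, a BMP ligand (decay difference −0.74, adjusted p = 0.00923), NOG, a secreted BMP antagonist (−0.59, adjusted p = 0.0272), ID3, an inhibitor of bHLH factors (−0.87, adjusted p = 0.0392), and TGIF1, a SMAD corepressor (−0.61, adjusted p = 0.0126). BMP4 differed by 0.31 at 0 h and −0.43 at 8 h, and ID3 by −0.12 and −0.99. In QKI7-dKH against QKI7-WT, ID3 had −0.39 and BMP4 −0.01.

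The kinases PIM1 (−0.65, adjusted p = 0.0221) and PIM3 (−0.66, adjusted p = 0.0392), known for short-lived mRNAs, fell further as well. So did the kinase NEK2 (−0.48), the CDK subunit CKS2 (−0.49), the cyclin CCNF (−0.58) and the citron kinase CIT (−0.49), with adjusted p from 0.0295 to 0.0399. None of these 10 genes passed relative to the all-gene median.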
